A study of Mus musculus with 9 samples.

Results

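The 13 SR genes and 20 hnRNP genes described here are the protein-coding entries of the expression table whose symbols are Srsf plus a number, Tra2a or Tra2b, or begin with Hnrnp. The rule uses names and no measured value, and it takes 33 of 54876 genes in the table. Cells were MIN6, a beta cell line derived from a mouse insulinoma and labelled C57BL/6, grown for 24 h in one of 3 media. Low, standard and high arginine medium held 0.1, 1 and 20 times the standard arginine concentration, and no other treatment is named. Each medium had 3 libraries of total RNA, 9 in all, so n = 3 throughout. Whether the 3 libraries of a medium came from separate cultures is not stated. The p-values therefore describe the spread among libraries, which may be technical.

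SR proteins bind exonic enhancers through RNA recognition motifs and recruit the spliceosome through a tail rich in arginine and serine, which kinases phosphorylate. Heterogeneous nuclear ribonucleoproteins (hnRNPs) coat nascent transcripts, and many of them act as silencers that oppose SR proteins at the same exons. Several members of both families limit their own level by splicing their transcripts into forms that are degraded by nonsense-mediated decay. In beta cells alternative splicing is known to affect genes of secretion and survival.

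Values are FPKM (fragments scaled to gene length and library size), so levels of different genes can be set side by side only as far as the gene length of the table holds. The reads in genes rebuilt from these values numbered 21550637 to 26300872 per library. The library size behind FPKM was above them in low arginine, at 26258505 to 28159579 against 24835801 to 26300872. In standard it was 20732983 to 24028130 against 21550637 to 24452040, and in high 23007995 to 24025930 against 23747593 to 24163731. FPKM per read in a gene was thus scaled down most in low arginine. TPM (FPKM scaled to an equal sum per library), an alternative below, does not depend on this size. Every tested member rested on at least 768 reads in each library. Of the 12 beta cell markers 11 passed the filter on low values, led by Ins2 at a mean of 50200 FPKM, while the glucose transporter gene Slc2a2 was at 0.0103 FPKM and Ucn3 at 0.753 FPKM. All 12 fibroblast, endothelial and immune markers had a mean under 1 FPKM, and Ptprc, Adgre1 and Cdh5 were listed at 0 in all libraries. Of the 12 acinar and duct markers 11 had a mean under 1 FPKM, and 6 were at 0 in all libraries. The summed level of the 10 alpha, delta and PP cell markers moved with the medium, reaching 9060 to 11600 FPKM in low arginine against 6320 to 7200 in standard and 6620 to 6800 in high, most of it from Sst. Other members of that list went the other way: Ttr had a mean of 296 FPKM in low and 904 in standard arginine, and Gcg 16.3 and 25.7. Among these 10 markers, 6 had a mean under 1 FPKM. The share of reads from the mitochondrial genome was 0.675 to 0.765% in low arginine, against 0.813 to 0.955% in standard and 0.889 to 1.01% in high. Beta cell markers moved both ways: Pdx1 had a mean of 373 FPKM in low and 150 in standard arginine, and Nkx6-1 190 and 66.3. In the other direction Pcsk1 had 50.8 and 180, G6pc2 399 and 716, and Ins1 1070 and 1540. The summed beta cell markers overlapped, at 79100 to 80700 FPKM in low and 74400 to 83000 in standard. The part of these shifts in the results was not tested. In bulk RNA, fewer cells of a type and less RNA per cell cannot be told apart.

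The bases just before the start site are shown for 4 members that rose in low arginine (Hnrnph3, Srsf1, Tra2b, Tra2a) and for the 4 hnRNP genes with the largest falls, because members of these families moved in opposite directions. Each of the 8 has 1 listed start. The rising members shown are not the largest such rises. Hnrnpa3 (0.62), Hnrnpa0 (0.52) and Srsf10 (0.51) have 1 listed start and rose more than Tra2a (0.50). All of these hold CCAAT within the 250 bases searched. The rising members shown are mostly SR genes and the falling ones all hnRNP genes, so family and direction cannot be told apart in them. They are the 120 bases before the start, from RefSeq on GRCm38.p6, 5′ to 3′ on the strand of the gene. Capitals mark matches on either strand to any of 6 motifs. The first is the CCAAT box, spelled CCAAT. The cAMP response element is TGACGTCA, and its half-site TGACG lies within it. The E-box is CACGTG. The TATA box was searched as TATAAA. The composite site of ATF4 and C/EBP factors was searched as TGATGNAAT.
Hnrnph3 (chr10:63023850-63023969, - strand): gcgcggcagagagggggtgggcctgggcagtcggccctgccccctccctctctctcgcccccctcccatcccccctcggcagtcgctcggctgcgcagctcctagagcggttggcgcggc
Srsf1 (chr11:88047253-88047372, + strand): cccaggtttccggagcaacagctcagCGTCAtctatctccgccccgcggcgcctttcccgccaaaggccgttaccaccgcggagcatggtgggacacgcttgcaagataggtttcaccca
Tra2b (chr16:22266006-22266125, - strand): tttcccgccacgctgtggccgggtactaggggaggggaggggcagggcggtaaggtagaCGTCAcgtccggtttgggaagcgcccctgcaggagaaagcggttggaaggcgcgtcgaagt
Tra2a (chr6:49264053-49264172, - strand): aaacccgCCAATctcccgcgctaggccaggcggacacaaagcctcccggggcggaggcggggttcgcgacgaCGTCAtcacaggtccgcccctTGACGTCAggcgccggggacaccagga
Hnrnpa1 (chr15:103240277-103240396, + strand): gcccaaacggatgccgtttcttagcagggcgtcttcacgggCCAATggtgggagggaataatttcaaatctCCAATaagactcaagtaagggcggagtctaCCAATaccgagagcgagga
Hnrnph2 (chrX:134601059-134601178, + strand): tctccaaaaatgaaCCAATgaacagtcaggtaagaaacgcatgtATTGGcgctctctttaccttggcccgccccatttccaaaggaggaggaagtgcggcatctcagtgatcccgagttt
Hnrnpl (chr7:28810770-28810889, + strand): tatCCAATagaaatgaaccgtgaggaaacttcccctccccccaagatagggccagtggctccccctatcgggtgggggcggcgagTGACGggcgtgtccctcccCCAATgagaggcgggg
Hnrnpab (chr11:51606882-51607001, - strand): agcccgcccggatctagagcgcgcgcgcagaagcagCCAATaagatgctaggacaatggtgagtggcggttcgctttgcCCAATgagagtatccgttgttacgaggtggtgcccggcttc
Of the 33 members, 31 matched a RefSeq start by symbol, and 25 of these had 1 listed start. Searched over 250 bases before each start, CCAAT was found at 13 of 18 tested hnRNP genes and 4 of 12 tested SR genes, against 41.3% of 8521 tested protein-coding genes with a listed start. TGACG was found at 8 of 12 SR genes and 10 of 18 hnRNP genes, against 32.5% of these genes. CACGTG was found at 0 SR genes and 3 hnRNP genes, against 10.5%. TGATGNAAT was found at 0 members and at 0.446% of genes. The full cAMP response element was found at Tra2a alone among members, against 3.25% of genes, and TATAAA at 2 SR genes and 1 hnRNP gene, against 6.82%. Searched in the same way but not capitalised, the GC box GGGCGG was found at 11 SR and 14 hnRNP genes, against 67.8% of genes, and the ETS site CCGGAAG at 4 and 2, against 16.6%. A match describes letters in this window and is not evidence of a bound factor.

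In low arginine most SR genes rose, by 0.26 to 0.54 on the log2 scale, whereas hnRNP genes moved both ways. Of the 12 SR genes that passed the filter (FPKM of at least 1 in at least 3 libraries), 10 rose and 1 fell in limma on log2(FPKM + 1) at a Benjamini-Hochberg adjusted p under 0.05. The background is wide: 62.2% of the 12300 genes tested were called in this contrast, 30.3% higher and 31.9% lower. Of the 20 hnRNP genes, all of which passed the filter, 11 rose, 5 fell and 4 were not called. The median log2 change was 0.4 over the SR genes and 0.22 over the hnRNP genes, beside 0.001 over all genes tested. In TPM, which moved the median of all genes to 0.115, all-gene calls were 4843 higher and 3018 lower instead of 3723 and 3923, and the medians of both families were 0.53 and 0.36. An unadjusted p under 0.05 was reached by 12 of 12 SR and 17 of 20 hnRNP genes, beside 65.7% of all genes. Srsf12, the only member below the filter, reached at most 0.0605 FPKM in any library and is not described further.

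**Figure D1:**
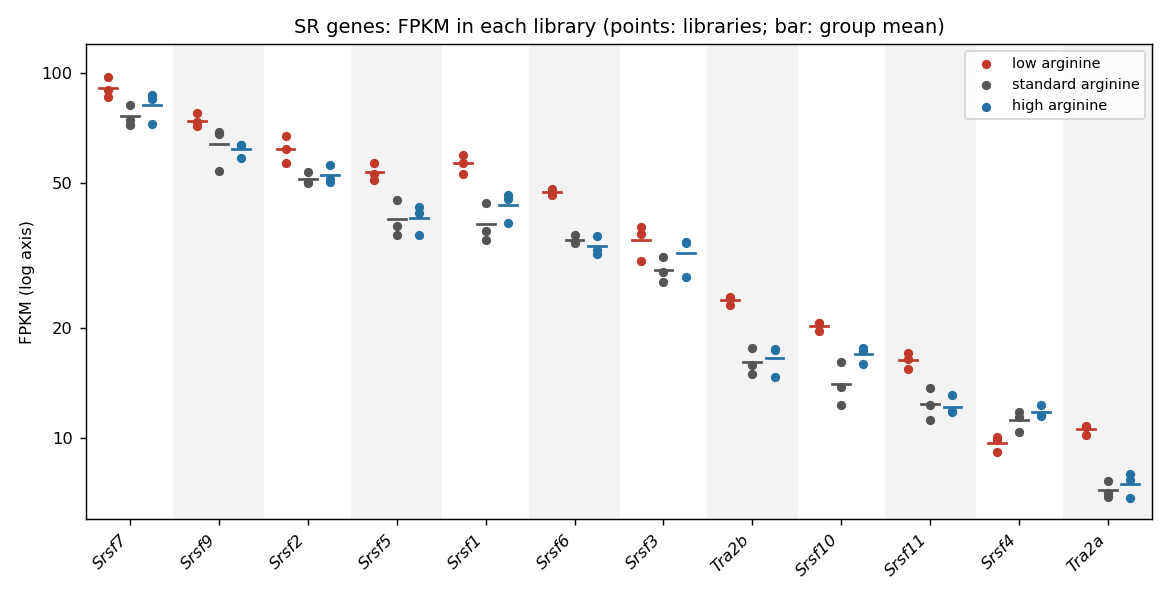
FPKM on a log axis for the 12 tested SR genes, ordered by their mean in standard arginine, with 1 point per library and a bar at each group mean (3 libraries per group). For most genes the 3 low arginine points lie above the other 6; Srsf4 is the reverse.

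Srsf1 is the prototype SR protein, which binds purine-rich exonic enhancers and also acts in RNA export and translation. It lies on chromosome 11, 88047373 to 88053755 (GRCm38). Its level was 53.0, 56.7 and 59.7 FPKM in the low arginine libraries, 36.8, 34.9 and 44.1 in standard and 38.9, 45.3 and 46.3 in high. The low arginine libraries lay above the other 6, while standard and high overlapped. The log2 change in low against standard arginine was 0.54 (SE 0.09, adjusted p 0.00054).

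Tra2b and Tra2a, the transformer 2 homologues, recognise exonic enhancers rich in GAA and lie on chromosomes 16 (22244549 to 22266005) and 6 (49243924 to 49264033). Tra2b stood at 23.1, 24.2 and 24.3 FPKM in low, 15, 15.9 and 17.7 in standard and 14.7, 17.4 and 17.5 in high arginine. Tra2a read 10.8, 10.2 and 10.7 FPKM in low, 6.92, 7.08 and 7.63 in standard and 6.86, 7.67 and 7.99 in high arginine. Both genes rose in low arginine, with every low library above every other, by 0.54 (SE 0.08, adjusted p 0.00018) and 0.50 (SE 0.06, adjusted p 6.9e-05). The ratio of group means was 1.47 for each.

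Srsf10, whose protein turns from activator to repressor when dephosphorylated, lies on chromosome 4, 135855747 to 135869908. Its 3 libraries read 20.7, 19.7 and 20.7 FPKM in low, 13.8, 12.3 and 16.2 in standard and 16, 17.7 and 17.3 in high arginine. High arginine lay between low and standard, overlapping standard only. The rise in low arginine was 0.51 (SE 0.09, adjusted p 0.00044).

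Srsf4, one of the larger SR proteins with a long arginine and serine tail, went the other way. It lies on chromosome 4, 131873617 to 131901706. Its values were 9.87, 9.19 and 10.1 FPKM in low, 11.8, 10.4 and 11.4 in standard and 12.3, 11.6 and 11.5 in high arginine. The groups low and standard were close, with low just below, and the log2 change was -0.19 (SE 0.06, adjusted p 0.022). This fall was not called in TPM (-0.08, adjusted p 0.39) or without low replicate 2, standard replicate 1 or standard replicate 3 (adjusted p 0.089, 0.084 and 0.051).

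Srsf7 and Srsf9 had the highest levels of the family. Srsf7, a zinc knuckle SR protein on chromosome 17 (80200089 to 80207305), was at 86.1, 89.7 and 97.2 FPKM in low, 71.9, 74.2 and 81.8 in standard and 72.6, 85.0 and 86.9 in high arginine, a rise in low of 0.26 (SE 0.08, adjusted p 0.018). Its call was lost without low replicate 3, standard replicate 1 or standard replicate 2, at adjusted p 0.073, 0.066 and 0.051. With no filter on low values the calls of Srsf7, Srsf3 and Hnrnpf were lost, at adjusted p 0.052, 0.13 and 0.069, and 8 SR genes were called higher. Under quantile normalization Srsf7 rose by 0.45 (adjusted p 0.0013). Srsf9, a short relative of Srsf1 on chromosome 5 (115327177 to 115333080), was at 77.5, 73.2 and 71.4 FPKM in low, 69.1, 68.2 and 53.8 in standard and 63.6, 63.5 and 58.4 in high arginine. It just missed the threshold in low against standard, at 0.22 (SE 0.09, adjusted p 0.052), although its low libraries lay above all the others. Without standard replicate 1 or standard replicate 2 it was called, at adjusted p 0.03 and 0.037, and with a replicate block at 0.012. Replicate numbers were not taken as pairs in this contrast, so the block has little basis in it, for Srsf9 or for genes below. Srsf9 was also called in TPM (0.35, adjusted p 0.0021), under quantile normalization (0.40, adjusted p 0.0011), with voom weights (adjusted p 0.031) and among genes of mean FPKM 5 or more (adjusted p 0.038).

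The other SR rises in low arginine were those of Srsf6 (0.43), Srsf5 (0.43), Srsf11 (0.37), Srsf2 (0.26) and Srsf3 (0.26), with SEs of 0.06 to 0.10. Srsf2, known for its role in U2 and U1 snRNP recruitment, lies within Mettl23 and across part of Mfsd11 on the opposite strand; these had means of 4.09 and 10.8 FPKM beside 55.3 for Srsf2. The library kit keeps strand, but no source used here says whether the counting made use of it, and the values of Srsf2 and of other overlapping members are uncertain to that extent. Srsf3, the smallest SR protein, had the largest adjusted p of the called SR genes (0.047), and its low and standard libraries overlapped. Its call was lost in 6 of the 9 fits that leave out 1 library, at adjusted p 0.052 to 0.16; it held without low replicate 1, standard replicate 3 or high replicate 1. By library, Srsf6 spanned 46.4 to 48.2 FPKM in low and 34.2 to 36.1 in standard, Srsf5 50.8 to 56.8 and 36.1 to 44.8, and Srsf11 15.5 to 17.1 and 11.2 to 13.7. Srsf2 spanned 56.8 to 67.3 and 49.9 to 53.7, and Srsf3 30.5 to 37.8 and 26.7 to 31.4. High arginine overlapped standard for all 5.

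**Figure D2:**
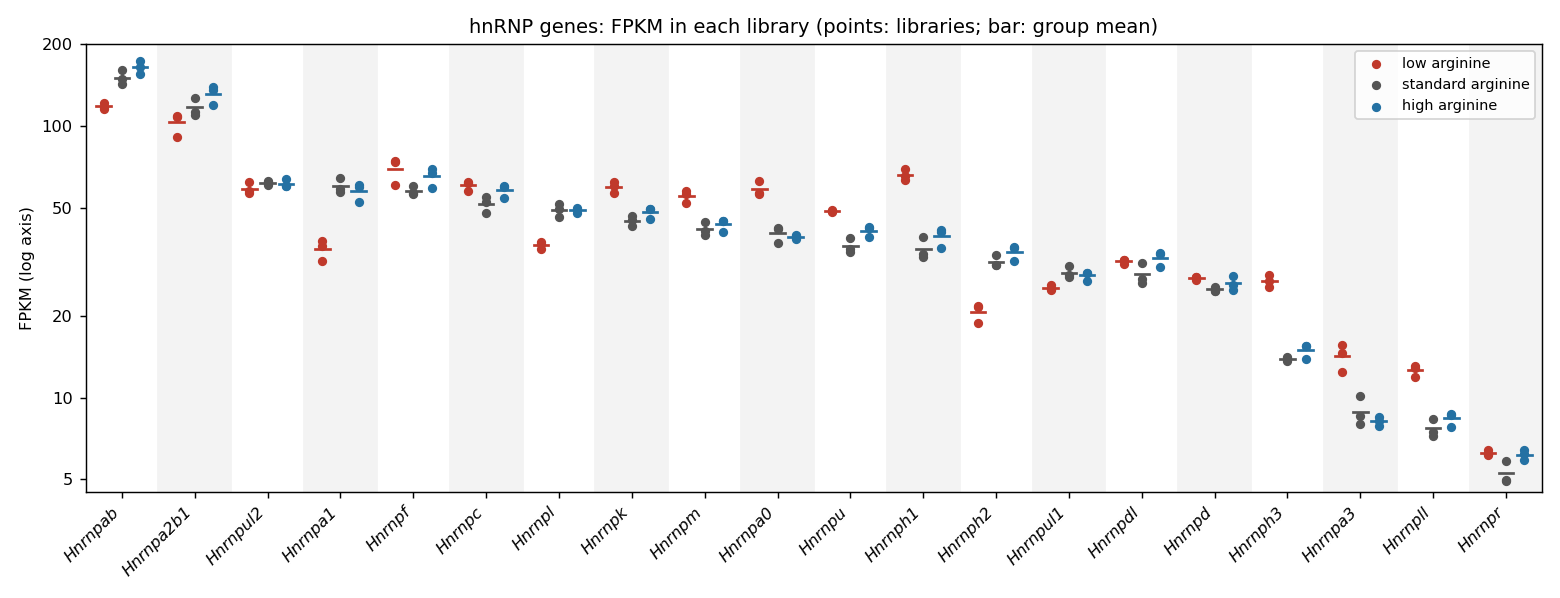
FPKM on a log axis for the 20 hnRNP genes, ordered by their mean in standard arginine, with 1 point per library and a bar at each group mean (3 libraries per group). Low arginine points lie above the others for genes such as Hnrnph1 and Hnrnph3 and below them for Hnrnpa1, Hnrnph2 and Hnrnpl.

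Among the hnRNP genes, relatives within some subfamilies moved in opposite directions. Calls in both directions were common among all genes tested, at 30.3% higher and 31.9% lower. How often other related genes split in this way was not tested. The H and F subfamily binds runs of guanines. Hnrnph3, on chromosome 10 (63014664 to 63024217), went from 13.6, 14.1 and 14 FPKM in standard to 28.3, 25.6 and 26.9 in low arginine, and was at 13.9, 15.5 and 15.5 in high. Its log2 change in low against standard was 0.91 (SE 0.06, adjusted p 5.9e-07), the largest rise among the members. Rufy2 overlaps it on the opposite strand with a mean of 3.29 FPKM beside 18.6 for Hnrnph3. Hnrnph1, on chromosome 11 (50376990 to 50386528), was at 69.5, 63.2 and 65.4 FPKM in low, 32.9, 33.7 and 39.1 in standard and 35.4, 40.7 and 41.5 in high arginine. It rose by 0.89 (SE 0.08, adjusted p 5.5e-06).

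Hnrnph2, the X-linked relative of Hnrnph1 (134601179 to 134607060), fell in low arginine. It was at 18.8, 21.8 and 21.6 FPKM in low, 30.7, 30.8 and 33.4 in standard and 31.7, 35.9 and 35.6 in high arginine, a log2 change of -0.59 (SE 0.07, adjusted p 5.2e-05). In standard arginine the libraries of Hnrnph1 and Hnrnph2 overlapped in FPKM. In low arginine they stood apart, at a mean of 66.0 for Hnrnph1 and 20.7 for Hnrnph2. Hnrnpf rose by 0.26 (SE 0.09, adjusted p 0.023) and lost its call without low replicate 2 or 3 or standard replicate 1 or 2, at adjusted p 0.064 to 0.088.

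The A and B subfamily holds the classical silencers of exon inclusion. Hnrnpa1, on chromosome 15 (103240432 to 103246692), had the largest fall of all members. It was at 31.9, 36 and 37.7 FPKM in low, 56.9, 58.5 and 64.5 in standard and 52.5, 60.5 and 59.5 in high arginine, with no overlap between low and the other media. The log2 change was -0.75 (SE 0.08, adjusted p 1.7e-05), a ratio of means of 0.587. Hnrnpa0, a close relative on chromosome 13 (58125879 to 58128556), rose by 0.52 (SE 0.07), so that the order of these genes turned: the standard libraries held 37.2 to 42.2 FPKM of Hnrnpa0 and 56.9 to 64.5 of Hnrnpa1, the low libraries 56.3 to 62.8 and 31.9 to 37.7.

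Hnrnpa2b1, a reader of RNA sorting signals on chromosome 6 (51460932 to 51469894), was among the 2 most abundant hnRNP genes. It stood at 91.1, 109 and 108 FPKM in low, 112, 110 and 127 in standard and 119, 139 and 136 in high arginine. Low arginine lay just below standard, but the change of -0.19 (SE 0.09, adjusted p 0.093) was not called, except with a replicate block (adjusted p 0.023). Its direction depended on the scaling, at -0.06 in TPM and 0.05 under quantile normalization.

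Hnrnpa3, on chromosome 2 (75659261 to 75669407), was at 15.6, 12.4 and 14.6 FPKM in low, 8.56, 8.0 and 10.1 in standard and 7.87, 8.23 and 8.47 in high arginine. Its log2 change in low against standard was 0.62 (SE 0.09, adjusted p 2e-04), but the entry is uncertain. The table holds 27 other genes whose transcripts match that of Hnrnpa3 over at least 300 bases at 95% identity or more, and these copies held up to 817% of the reads of Hnrnpa3 itself. The most abundant copy was Gm6793, listed as protein-coding and 98.3% identical over 1476 bases. In CPM (reads scaled to library size), Hnrnpa3 had 76.6 ± 9.03 in low and 47.9 ± 5.80 in standard, and its copies 345 ± 15.5 and 353 ± 15.6 (SD, n = 3 each). Gene and copies together had 421 ± 9.61 in low arginine, against 401 ± 19.9 in standard and 406 ± 28.0 in high, with overlapping libraries.

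Of the 11 members with such copies, only Hnrnpk, Srsf5 and Hnrnpa1, beside Hnrnpa3, had copies with more than 5% of their own reads. For these 3 the sum of gene and copies kept the direction of the gene. Hnrnpk, an RNA- and DNA-binding protein with KH domains, had 435 ± 18.6 CPM with its copies in low and 330 ± 12.1 in standard arginine, and a log2 change of 0.40. Hnrnpa1 with its copies had 119 ± 10.6 in low and 202 ± 13.5 in standard, and Srsf5 229 ± 12.7 and 171 ± 19.1.

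**Figure D3:**
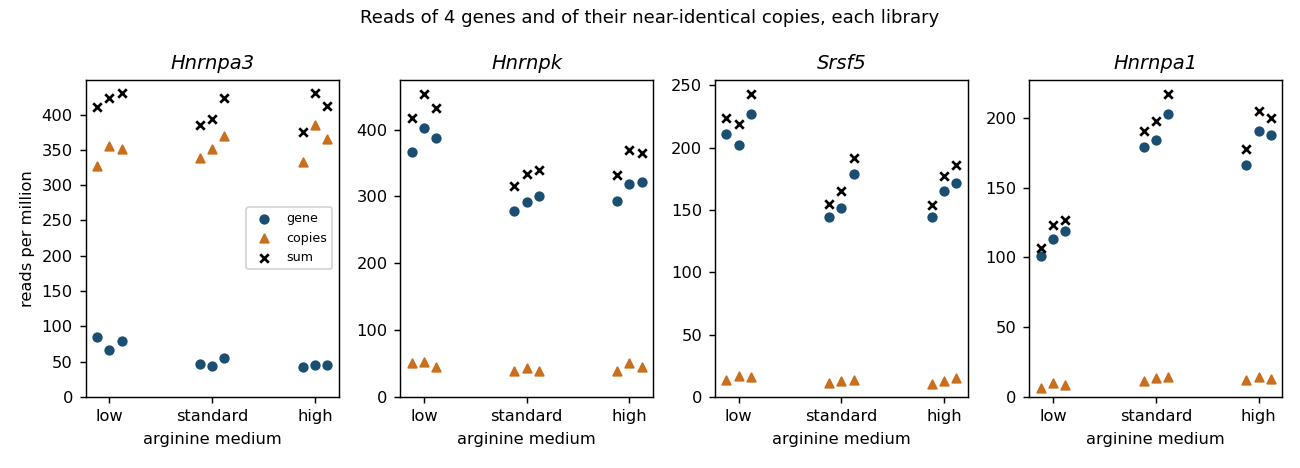
CPM (reads scaled to library size) for Hnrnpa3, Hnrnpk, Srsf5 and Hnrnpa1 in each library (circles), for all their near-identical copies together (triangles) and for the sum (crosses), on axes that start at 0. For Hnrnpa3 the copies hold most of the reads and the sums overlap between media, whereas for the other 3 genes the gene holds most of the reads.

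The L subfamily split as well. Hnrnpl, which binds CA repeats, lies on chromosome 7, 28808541 to 28822266. It read 37.4, 35.3 and 36.6 FPKM in low, 51.4, 49.6 and 46.2 in standard and 49.8, 47.9 and 49.2 in high arginine, and fell by 0.42 in low (SE 0.06, adjusted p 7.6e-05). Hnrnpll, its relative known for control of Ptprc splicing in lymphocytes, lies on chromosome 17, 80029487 to 80062334. It read 11.9, 12.9 and 13.1 FPKM in low, 7.24, 7.50 and 8.36 in standard and 7.80, 8.67 and 8.66 in high arginine. Its rise in low was 0.65 (SE 0.07, adjusted p 1.4e-05). In both genes the low libraries stood clear of the other 6, on opposite sides.

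Hnrnpab, a relative of the AU-binding D proteins on chromosome 11 (51600100 to 51606847), was the most abundant member. It was at 117, 115 and 121 FPKM in low, 149, 160 and 142 in standard and 155, 173 and 164 in high arginine. It fell in low by 0.35 (SE 0.06, adjusted p 0.00068), a fall that was not called under quantile normalization (-0.10, adjusted p 0.11). Hnrnpd, which encodes AUF1, and Hnrnpdl were not called, at 0.14 and 0.16, but both were in TPM, at 0.26 and 0.29. Hnrnpd was also called without high replicate 2 (adjusted p 0.05) and Hnrnpdl without standard replicate 3 (adjusted p 0.009), and both with a replicate block (adjusted p 0.024 and 0.039). In the U subfamily, Hnrnpu, a scaffold attachment factor, rose by 0.42 (SE 0.06, adjusted p 1.1e-04), Hnrnpul1 fell by 0.18 (SE 0.06, adjusted p 0.018) and Hnrnpul2 was at -0.07 (adjusted p 0.27). The fall of Hnrnpul1 was not called in TPM (-0.06, adjusted p 0.31), under quantile normalization, or without low replicate 2, low replicate 3 or standard replicate 2 (adjusted p 0.054, 0.06 and 0.075). Cox20, on the opposite strand across 1586 bases of Hnrnpu, had a mean of 5.54 FPKM beside 41.9 and a log2 change of 1.52.

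The remaining hnRNP rises were those of Hnrnpm (0.40, 51.9 to 57.7 FPKM in low and 39.6 to 44.2 in standard), Hnrnpc (0.22, 57.4 to 62.2 and 47.7 to 54.5), which binds uridine tracts, and Hnrnpr (0.22). The gene listed as 2-Mar overlaps Hnrnpm on the same strand across 1169 bases, with a mean of 3.05 FPKM beside 46.7. Hnrnpc lost its call without standard replicate 1 (adjusted p 0.058). Hnrnpr lost it without low replicate 2, standard replicate 1 or standard replicate 2 (adjusted p 0.053, 0.063 and 0.059). Low arginine libraries lay wholly above standard for 12 hnRNP and 10 SR genes and wholly below for 6 and 1, beside 32.0% and 33.4% of all genes tested.

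The second comparison asked whether an excess of arginine changed these genes. No member passed the test in high against standard arginine. In limma 0 of 12 SR and 0 of 20 hnRNP genes were called, against 0.309% of all genes tested, and 1 and 4 had an unadjusted p under 0.05, beside 14.3% of all genes. The count was also 0 in each of the 17 alternatives, voom weights included. Few genes of any kind were called in these, at most 46 higher and 42 lower with a replicate block. In a fit of the 2 groups alone 0 and 0 were called, so a count of 0 members adds little. The median log2 change was 0.04 over SR and 0.1 over hnRNP genes, beside 0.014 over all genes. SEs of 0.05 to 0.10 on the log2 scale mean that small differences could have been missed. With few genes called, the adjusted threshold was also harder to reach than in low against standard. In limma Srsf10 changed by 0.26 in high against standard, where an unadjusted p of 0.012 gave an adjusted p of 0.22. Srsf3 changed by 0.26 in low against standard, where 0.029 gave 0.047. Differences as large as the smaller SR rises in low arginine could thus have gone uncalled.

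The smallest p-values in that contrast belonged to Srsf10 and Srsf1 among SR genes, at 0.26 (SE 0.09, adjusted p 0.22) and 0.17 (SE 0.09, adjusted p 0.44), both with overlapping libraries. Among hnRNP genes they belonged to Hnrnpu and Hnrnpr. Hnrnpu, on chromosome 1 (178321108 to 178337797), was at 48.1, 48.9 and 48.5 FPKM in low, 35.3, 34.4 and 38.6 in standard and 39.1, 41.9 and 42.3 in high arginine, a log2 change in high against standard of 0.18 (SE 0.06, adjusted p 0.21). Hnrnpr, on chromosome 4 (136310942 to 136359447), was at 6.16, 6.43 and 6.20 FPKM in low, 4.95, 4.98 and 5.86 in standard and 5.88, 6.44 and 6.18 in high arginine, a change of 0.20 (SE 0.07, adjusted p 0.23). These 2 were the only members whose high libraries all lay above the standard ones, beside 10.4% of all genes tested, and 0 members lay wholly below, beside 8.14%.

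Set against each other directly, high and low arginine differed for 10 of 12 SR and 14 of 20 hnRNP genes, beside 61.5% of all genes tested. In limma 9 SR genes were lower and 1 higher in high arginine, and 8 hnRNP genes were lower and 6 higher, where 29.2% of all genes tested were lower and 32.3% higher. The hnRNP split was 10 lower and 4 higher in TPM, and 11 lower and 4 higher under quantile normalization. Hnrnph3, Hnrnph1 and Hnrnpa3 had the largest negative changes, at -0.81, -0.74 and -0.72, and Hnrnph2, Hnrnpa1 and Hnrnpab the largest positive ones, at 0.70, 0.69 and 0.47. The change of Hnrnpa3 is uncertain, since with its copies it had 421 ± 9.61 CPM in low and 406 ± 28.0 in high arginine. Hnrnpa2b1, not called against standard arginine, was higher in high than in low by 0.36 (SE 0.09, adjusted p 0.0054), but not in TPM (0.23, adjusted p 0.061) or under quantile normalization (0.08, adjusted p 0.5). Srsf7 and Srsf3, which rose in low against standard, were not called here, at -0.16 (adjusted p 0.11) and -0.12 (adjusted p 0.35), nor were Hnrnpf, Hnrnpc and Hnrnpr, at -0.09, -0.06 and -0.02. Srsf7 was called in TPM (-0.29, adjusted p 0.019), under quantile normalization (-0.38, adjusted p 0.0035) and with the replicate block (-0.16, adjusted p 0.013), in a contrast whose same-numbered libraries deviated together. Hnrnpc was called in TPM (-0.19, adjusted p 0.03) and under quantile normalization (-0.21, adjusted p 0.019), and Hnrnpf under quantile normalization (-0.26, adjusted p 0.034). Hnrnpd, not called at -0.07 (adjusted p 0.33), was called in TPM (-0.19, adjusted p 0.0066) and under quantile normalization (-0.18, adjusted p 0.0082). With no filter on low values the calls of Srsf10 and Srsf9 were lost, at adjusted p 0.071 and 0.082. Leaving out 1 library ended the calls of Srsf10 (without low replicate 1, low replicate 3 or high replicate 1, adjusted p 0.063 to 0.087), Srsf9 (without low replicate 1, low replicate 2 or high replicate 3, 0.058 to 0.098) and Srsf2 (without low replicate 1, high replicate 1 or high replicate 2, 0.056 to 0.061). It also ended that of Hnrnpul1 (0.15), without low replicate 2, low replicate 3, high replicate 1 or high replicate 2, at 0.1 to 0.13, and its change was 0.03 (adjusted p 0.65) in TPM and 0.04 (adjusted p 0.47) under quantile normalization. Srsf4, the SR gene higher in high arginine at 0.26 (adjusted p 0.0039), was not called in TPM (0.15, adjusted p 0.097). In TPM all-gene calls were 3094 higher and 4735 lower instead of 3967 and 3594.

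**Figure D4:**
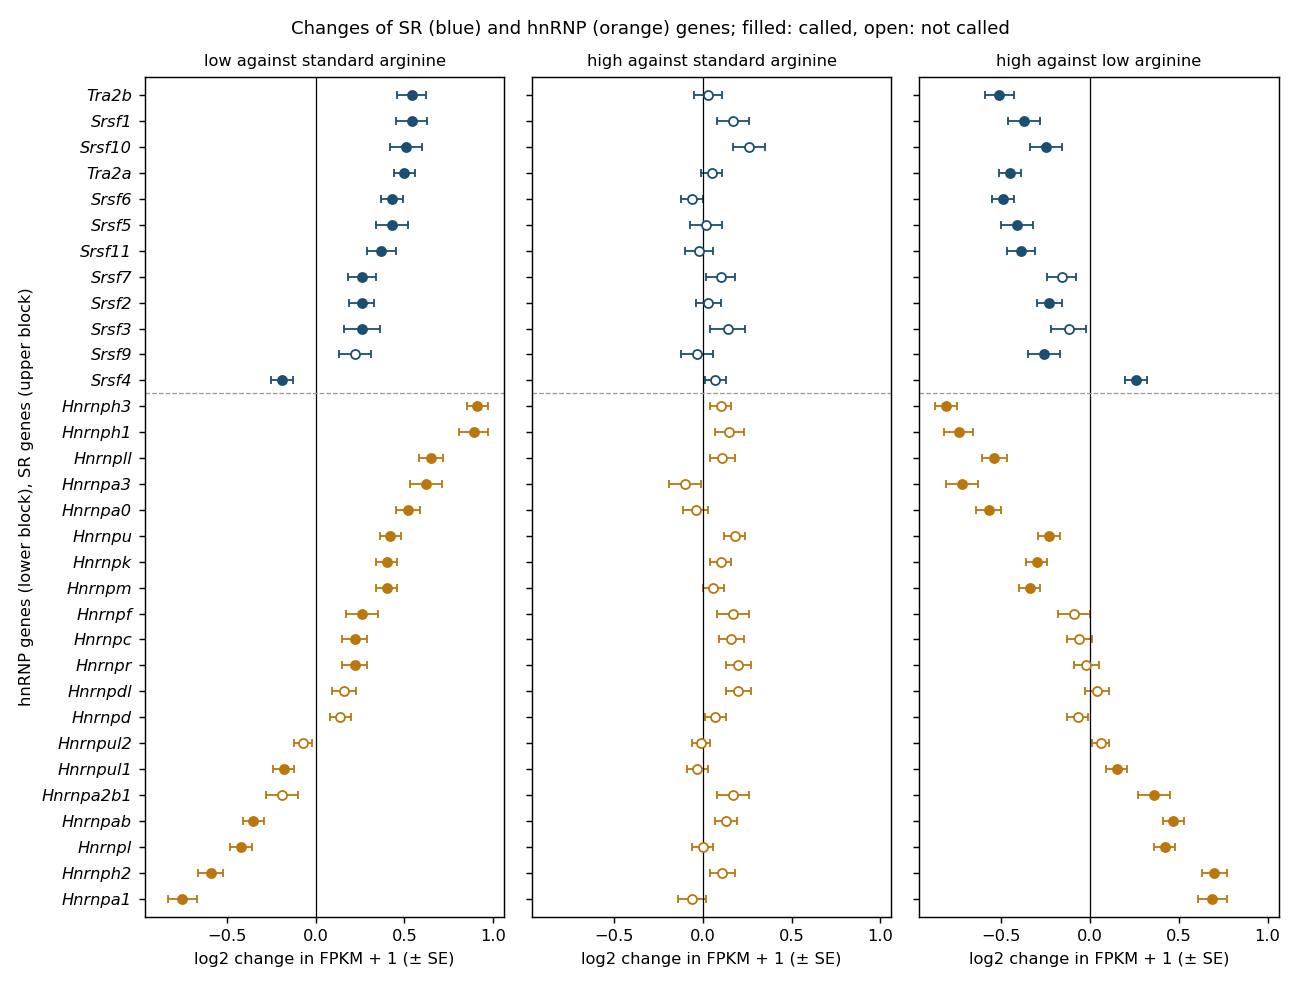
Log2 change in FPKM + 1 with its SE for each tested member in the 3 contrasts, from limma on all 9 libraries; filled points passed an adjusted p of 0.05. The contrasts against standard arginine share the 3 standard libraries. Low against standard spans -0.75 to 0.91, whereas every point of high against standard is open.

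Summed over members, SR genes took 0.223 to 0.241% of reads in low arginine, against 0.154 to 0.179% in standard and 0.155 to 0.182% in high. Summed FPKM ran from 488.4 to 515.3 in low and 384.5 to 409.2 in standard for SR genes. For hnRNP genes the sums of FPKM were 907.5 to 948.0 and 871.7 to 916.5, which overlap. Their share of reads was 0.514 to 0.545% in low arginine, above the 0.443 to 0.489% in standard and 0.457 to 0.504% in high. Within groups the members were tight, with a median coefficient of variation of 4.86% for SR and 4.88% for hnRNP genes in low arginine and of 8.42% and 5.98% in standard. Libraries of a group differed together across members: standard replicate 3 was the highest of its group for 9 of 12 SR and 12 of 20 hnRNP genes, and high replicate 1 the lowest of its group for 9 and 15.

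GENCODE M21 lists a transcript of the nonsense-mediated decay class for 11 of 12 tested SR genes and 10 of 20 hnRNP genes, against 29.4% of tested protein-coding genes. Srsf10 was the SR gene without one, and carries 10 transcripts in all. A retained-intron transcript is listed for 10 SR and 14 hnRNP genes, against 59.5%. Members also had more listed transcripts, with a median of 7.5 for SR and 8 for hnRNP genes, against 5 for tested protein-coding genes. The part of this in the shares was not tested. The table sums all transcripts of a gene, so productive and unproductive forms were not separated in any value given here.

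The calls among regulators and partners of the 2 families are to be read beside the 30.3% of all genes called higher and 31.9% called lower in low arginine. Of 15 SR protein kinases, phosphatase subunits and import or export factors, 7 rose and 3 fell, with a median log2 change of 0.17. Tnpo1, an importin for hnRNPs with PY signals, rose by 0.95 (SE 0.10), from 27.1 ± 4.74 to 52.8 ± 3.15 FPKM. The nuclear SR kinases Clk4 and Clk1 rose by 0.77 (SE 0.08) and 0.70 (SE 0.09). Of their relatives, named here after their values were seen, Clk3 fell by 0.34 (SE 0.06, adjusted p 0.00038) and Clk2 was at 0.07 (adjusted p 0.31). Of 26 SR-related coactivators 9 rose and 3 fell, with a median of 0.08; Rsrc2 was at 0.83, Rsrc1 at -0.51 and Scaf1 at -0.57.

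Of 33 tested RNA-binding proteins related to hnRNPs but named otherwise, 22 rose and 3 fell, with a median of 0.34. Pspc1, a paraspeckle protein, rose by 1.17 (SE 0.07), and Taf15, an RNA-binding protein of the transcription machinery, by 0.81 (SE 0.05). The cold-inducible Cirbp and Rbm3 were the list genes called in high against standard arginine, at -0.42 (adjusted p 0.02) and -0.45 (adjusted p 0.044); in low against standard Cirbp rose by 0.61 and Rbm3 was at 0.03. Both calls in high against standard were lost with no filter on low values and in a fit of those 2 groups alone (adjusted p 0.078 each), and that of Rbm3 also in TPM and under quantile normalization (adjusted p 0.052 and 0.051). The call of Cirbp was lost without low replicate 3, standard replicate 1, standard replicate 2 or any 1 of the high libraries, at adjusted p 0.052 to 0.12. The call of Rbm3 held only without low replicate 1 and was lost without any other single library, at adjusted p 0.058 to 0.16. Of 18 tissue-restricted regulators 9 rose and 2 fell, with a median of 0.16. Qk, which encodes Quaking, was at 0.97, the neuronal-type Elavl4 at 0.85 and Khdrbs3 at -0.47.

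Core spliceosome genes, like all genes, were called in both directions. Of 22 U1, U2 and U2AF genes 12 rose and 5 fell (median 0.26), with the SF3B subunits Sf3b4 at 0.69 and Sf3b5 at -0.79, and Snrpc at 0.47. Of 18 Sm and LSm genes 8 rose and 5 fell (median 0.17). Snrpb rose from 144 ± 11.4 to 243 ± 5.80 FPKM and its relative Snrpn, which encodes SmN, fell from 21.8 ± 1.64 to 12.5 ± 0.0836, while Lsm4 was at 0.44. Of 29 genes of the tri-snRNP and the Prp19 complex 11 rose and 6 fell (median 0.09), with Rbm22 at 0.85, Ddx23 at -0.68 and Snrnp200 at 0.58. All counts are from limma; the calls made up 58.6% of the tri-snRNP and Prp19 list and 46.2% of the SR-related coactivators, beside 62.2% of all genes.

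**Figure D5:**
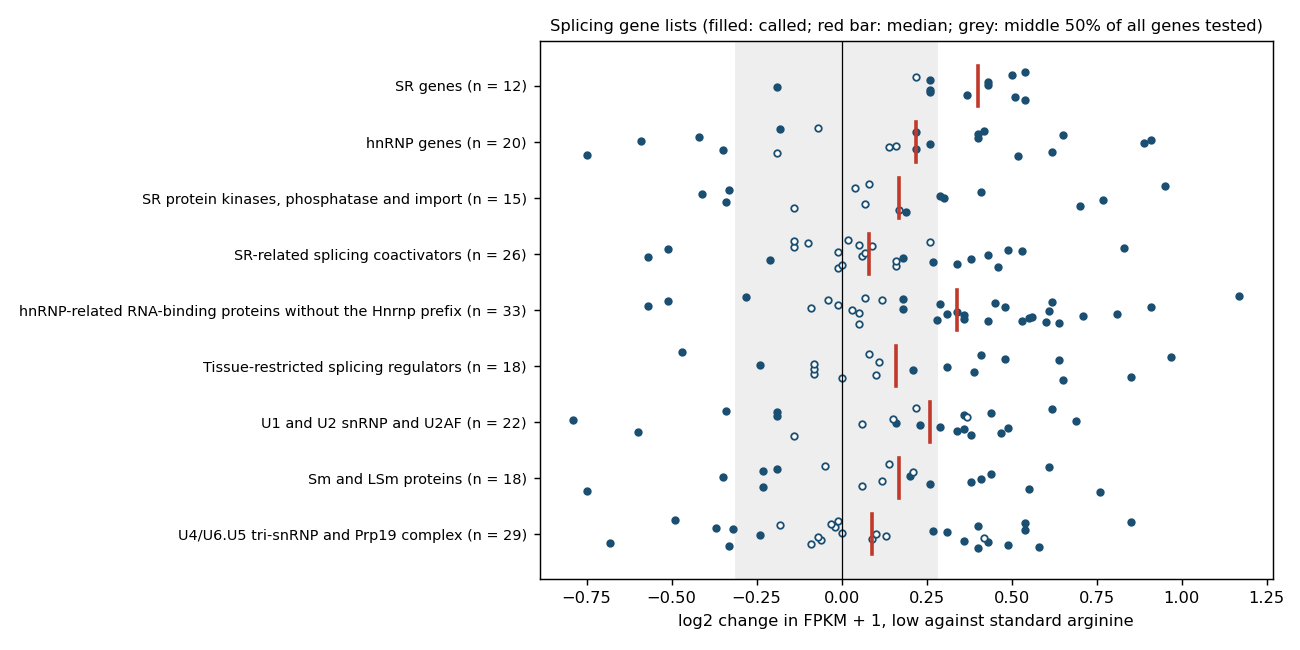
Log2 change in FPKM + 1 in low against standard arginine for each tested gene of 9 splicing gene lists (points; filled where called), with the list median as a red bar and the middle 50% of all 12300 genes tested, -0.31 to 0.28, in grey. The band is the spread of single genes and no reference for a median. Every list holds called genes on both sides of 0.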

How the data were processed

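FPKM per gene and library, with gene length, are the values the authors deposited, per the file headers. The submitters' processing notes name CASAVA 1.8, HISAT2 2.0.5, featureCounts 1.5.0-p3 and the build mm9; no source used here gives the strand or multi-read settings. Against GENCODE M21 (GRCm38), 98.26% of 54409 shared IDs have identical positions, so coordinates are called GRCm38. Columns of per-sample values left unused numbered 0. FPKM times gene length came out as whole reads in 100% of values (tolerance 0.01), which gave depth, voom weights and reads of copies.

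The filter kept 12300 genes that reached FPKM 1 in 3 or more of the 9 libraries. These were analysed as log2(FPKM + 1), which understates changes of low genes, in 1 limma 3.58.1 fit (R 4.3.3, variance trend, group only, 6 residual degrees of freedom). P-values are two-sided, Benjamini-Hochberg adjusted over all genes tested per contrast. The fit was also run on simulated libraries in which few genes changed and replicates varied independently. That setting differs from these data, so it does not give error rates for them. Copies were sought with blastn 2.17.0 (at least 95% identity over 300 bases) among GENCODE M21 transcripts. No pair of replicates agreed within sampling noise (chi-square per degree of freedom 2.682 to 13.62).

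Same-numbered low and high libraries deviated together (correlations 0.243, 0.153 and 0.217), so their numbers may pair them. Numbers in the other contrasts were not taken as pairs, and same-numbered low and standard libraries correlated at 0.0668, 0.117 and -0.0355. Unlike-numbered libraries also correlated, at 0.143 for standard 2 with high 1 and -0.264 for standard 3 with high 1. The main values of high against low come from the group-only fit, which ignores any pairing. A replicate block was used only as an alternative. Members and lists were chosen with earlier results of these data known. Members given with all libraries were, per family, the 4 largest called rises and falls in low against standard arginine, those called (or else the 2 of smallest p) in high against standard, and the 2 most abundant. Up to 3 called genes of smallest p are named per list. Some list genes are not reported here. Hnrnpa0, Hnrnpk, Srsf5 and the other genes given with ranges or copies were added after their values were seen. Protein sequence features were not analysed here.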

Additional observations from a re-analysis of the deposited data

How the results depend on the processing

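Of the 17 alternatives, most left the member counts near those given. With TPM 0 SR genes were called lower in low against standard and 0 higher in high against low arginine, and with quantile normalization 3 hnRNP genes were called lower in low against standard, and the cause was not tested. Of the 27 members called in low against standard, 5 moved by over 1.5 times in TPM (Hnrnpab, Hnrnpc, Hnrnpr, Hnrnpul1 and Srsf4) and 6 under quantile normalization (Hnrnpab, Hnrnpc, Hnrnpf, Hnrnpul1, Srsf2 and Srsf7). Of the 24 called in high against low, 6 moved so in TPM (Hnrnpa2b1, Hnrnpu, Hnrnpul1, Srsf10, Srsf2 and Srsf4) and 6 under quantile normalization (Hnrnpa2b1, Hnrnpab, Hnrnpu, Hnrnpul1, Srsf2 and Srsf9). Leaving out 1 library gave 0 to 1 SR falls in low against standard, with 0 without low replicate 2, standard replicate 1 or standard replicate 3. It gave 8 to 10 SR rises and, for hnRNP genes, 8 to 12 rises and 4 to 5 falls. For high against low it gave 6 to 9 SR genes lower, with 6 without low replicate 1. With a replicate block 11 SR and 13 hnRNP genes rose and 1 and 6 fell in low against standard. Of the 9 same-number pairs 6 had a correlation of deviations over 0.1 (range -0.0355 to 0.243), among them all 3 of low with high. In that contrast the block gave Srsf7 a call and changed no other call of a member. The alternatives were run on the named list genes after seeing the data, and in low against standard all of these kept their calls. Over single members, no call changed direction; in low against standard 30 values lost and 16 gained a call and 498 kept theirs, and in high against low arginine 20, 8 and 516.

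Over all genes, high against standard arginine had 17 rises and 21 falls. These became 46 and 42 with the block and 40 and 34 with voom weights. With no low gene filtered out, over 27191 genes tested, they became 4 and 2. In a fit of those 2 groups alone they were 0 and 0. Leaving out 1 library gave 0 to 26 and 0 to 35: 0 and 0 without standard replicate 2 or high replicate 3, 1 and 0 without high replicate 2, 6 and 4 without standard replicate 1, 8 and 5 without low replicate 3, 9 and 11 without high replicate 1, 10 and 10 without low replicate 2, and 26 and 35 without standard replicate 3. Testing only the 7426 genes of mean FPKM 5 or more, instead of 12300, gave 26 rises in high against standard. It gave 2328 rises in low against standard (3723 of 12300) and 2190 genes lower in high than in low (3594 of 12300). These counts come from fewer genes tested. The cause of the other differences was not tested. With at least 768 reads per tested member and library, counting error was not separated from the spread between replicates, and n = 3 per medium limits small changes.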

Other observations

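One pattern among the start sites was noticed after the values were seen and is given as a description with no test. TGACG lay in the 250 bases before a listed start of 16 of the 20 members that rose in low arginine and have a listed start, of 1 of the 6 that fell (Hnrnpl) and of 1 of the 4 not called (Hnrnpa2b1). Over all tested protein-coding genes the shares were 35.2% of genes that rose, 30.0% of genes that fell and 32.3% of those not called. Among genes with 1 listed start, which offer 1 window each, 12 of 16 rising and 1 of 5 falling members held it, against 32.6% and 27.3% of genes. CCAAT lay before 5 of the 6 members that fell, Hnrnpa1, Hnrnpab, Hnrnph2, Hnrnpl and Hnrnpul1. It lay before 11 of the 20 that rose, against 44.7% and 39.1% of genes. Among genes with 1 listed start it was 5 of 5 falling and 8 of 16 rising members, against 41.8% and 35.3%. The 5 are all hnRNP genes, and CCAAT was at 13 of 18 hnRNP and 4 of 12 SR genes. Rising hnRNP genes with it were Hnrnpa0, Hnrnpa3, Hnrnpc, Hnrnpf, Hnrnph1, Hnrnpk and Hnrnpr. Family and direction were not separated.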
